A study of Mus musculus and Homo sapiens with 12 samples.

Results

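The genes examined here encode 10 Krüppel-like factors (KLFs): KLF2, KLF3, KLF4, KLF5, KLF6, KLF7, KLF9, KLF10, KLF13 and KLF14. They were taken by name, as 10 of the 62663 genes of the GENCODE annotation for human cells and as the genes of the same name among 49943 RefSeq genes for mouse. Around each gene, and up to 10 kb on either side of it, the regions listed in 12 CUT&Tag libraries were collected. CUT&Tag places a transposase at a histone mark through an antibody, so that a peak in the resulting reads shows where the mark was recovered.

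The human libraries came from CCD841, a line of normal colon epithelial cells, all treated with 1 mM sodium butyrate (NaBu) for 12 to 16 h; no untreated CCD841 library was analysed. They profiled butyryl-lysine (Kbu) on histone H3 at lysine 18 (H3K18bu, 2 libraries) and on histone H4 at lysine 12 (H4K12bu, 2 libraries). The mouse libraries came from the large intestine of male CETP-ApoB-100 transgenic mice, 2 per condition, whose age is not given in the sources used here. H3K18bu and H4K12bu (2 libraries each) were profiled in mice labelled as fed a high fat, high sucrose diet with 5% arabinoxylan, a fermentable fiber, and the acetyl marks H3K18ac and H4K12ac (Kac, 2 libraries each) in mice labelled as fed high fat, high sucrose without it, although the methods of the study describe a low fat control arm. Acyl group and diet therefore cannot be told apart in the mouse data. The tissue was dissected whole, so that a mark carried by few cells and a weak mark carried by many cannot be told apart either.

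KLFs are zinc-finger transcription factors that bind GC-rich and CACCC elements in promoters and enhancers. They are commonly grouped by the cofactors they recruit: mostly activating members that work with acetyltransferases such as EP300 (KLF2, KLF4, KLF5, KLF6 and KLF7 here), a repressor that recruits CtBP (KLF3), and members that recruit the SIN3A corepressor (KLF9, KLF10, KLF13 and KLF14). In the intestinal epithelium KLF5 is known for its expression in dividing crypt cells and KLF4 for its expression in differentiated cells nearer the lumen.

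The sequences below lie in regions described in the results or are promoters that such regions reached in part. The first 3 are stretches of GRCh38 that lie inside H3K18bu regions of both CCD841 replicates, outside every annotated exon and written in the direction of the gene. They are 300 bases upstream of KLF6 (chr10:3785571-3785870, minus strand), 300 bases in an intron of KLF13 (chr15:31345143-31345442, plus strand) and 182 bases in an intron of KLF3 that all 4 CCD841 libraries covered (chr4:38673136-38673317, plus strand). The next 3 are the 250 bases before the start of mouse Klf13 (chr7:63938916-63939165, minus strand), Klf6 (chr13:5861239-5861488, plus strand) and Klf9 (chr19:23140976-23141225, plus strand), from RefSeq on GRCm38.p6, chosen because a Kbu region of both mouse replicates reached into them. A shared H4K12bu region also reached the Klf7 promoter of that table, which is not shown because its start is not that of the gene record used here. Capitals mark matches to the core of the CACCC box, which reads GGGTG on the other strand. They also mark the GC box, searched as CCGCCC or its reverse complement. In the Klf13 promoter a match of each kind overlap. Not every marked match lies inside a shared Kbu region. The Klf6 region covered only the first 90 of the 250 bases, and the marked GC box lies outside it. At Klf13 the CACCC core and the GC box nearest the start lie outside the regions of both Kbu marks.
KLF6 upstream: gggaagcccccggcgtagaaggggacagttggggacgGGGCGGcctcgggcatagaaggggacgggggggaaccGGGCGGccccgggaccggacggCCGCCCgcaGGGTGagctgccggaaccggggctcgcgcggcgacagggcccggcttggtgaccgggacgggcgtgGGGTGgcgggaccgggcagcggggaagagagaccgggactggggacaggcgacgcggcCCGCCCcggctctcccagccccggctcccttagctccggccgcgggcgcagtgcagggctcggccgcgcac
KLF13 intron: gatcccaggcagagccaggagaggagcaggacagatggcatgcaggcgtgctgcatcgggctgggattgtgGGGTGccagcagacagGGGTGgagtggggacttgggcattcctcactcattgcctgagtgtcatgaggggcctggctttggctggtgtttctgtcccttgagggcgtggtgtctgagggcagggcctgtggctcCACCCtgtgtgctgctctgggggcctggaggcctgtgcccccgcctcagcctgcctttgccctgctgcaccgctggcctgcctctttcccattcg
KLF3 intron: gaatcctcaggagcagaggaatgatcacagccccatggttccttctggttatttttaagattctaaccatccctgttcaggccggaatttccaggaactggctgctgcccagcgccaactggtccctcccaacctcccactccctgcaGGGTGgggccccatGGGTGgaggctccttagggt
Klf13 promoter: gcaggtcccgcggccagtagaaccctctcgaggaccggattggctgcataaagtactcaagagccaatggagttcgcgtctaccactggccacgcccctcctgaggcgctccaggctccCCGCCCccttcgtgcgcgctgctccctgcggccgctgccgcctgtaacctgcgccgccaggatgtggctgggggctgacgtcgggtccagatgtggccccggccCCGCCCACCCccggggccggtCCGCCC
Klf6 promoter: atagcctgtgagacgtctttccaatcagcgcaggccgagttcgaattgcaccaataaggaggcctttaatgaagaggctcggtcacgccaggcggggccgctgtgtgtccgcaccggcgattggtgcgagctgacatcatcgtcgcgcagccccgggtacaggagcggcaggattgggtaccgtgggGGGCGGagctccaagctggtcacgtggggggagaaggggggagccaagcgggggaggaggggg
Klf9 promoter: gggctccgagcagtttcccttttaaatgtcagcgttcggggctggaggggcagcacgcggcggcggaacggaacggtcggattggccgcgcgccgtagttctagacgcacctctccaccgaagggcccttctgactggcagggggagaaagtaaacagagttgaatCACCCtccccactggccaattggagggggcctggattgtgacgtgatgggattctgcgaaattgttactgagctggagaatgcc

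The 12 lists differed in what a listed region stood for. The CCD841 libraries listed 299296 to 299720 peaks, with a median of 7 to 15 reads piled up at a listed peak. The peaks merged into 207129 to 282656 regions. In H4K12bu replicate 2, the library with the median of 7, 54.7% of regions had q under 0.05, against 100% in the other 3. The Kac libraries were also close to the limit of 300000 peaks, but only 4.96% to 20.0% of their regions had q under 0.05. The mouse Kbu libraries listed 50675 to 96432 peaks, and a single read made up the pileup of 89.2% to 91.4% of these peaks. A region is called shared below when it was present in both replicates of a mark. Pairs of mouse libraries had 56 to 459 regions with the same first and last base across the genome, and at most 1 such region at the KLF genes.

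In CCD841 cells 8 of the 10 KLF genes had a shared H3K18bu region, beside 75.8% of all protein-coding genes. The H4K12bu libraries also gave 8 of 10, beside 76.5%. The presence of a region was therefore close to the background. KLF10, a TGF-β-inducible gene, had no shared region of either mark, although H3K18bu listed 4 and 1 regions and H4K12bu 0 and 1 in its replicates. KLF14, an intronless gene, had no shared H3K18bu region and 1 shared H4K12bu region, and KLF4 had 1 H3K18bu region and no listed H4K12bu region in either replicate.

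The number of regions was highest at KLF13 and KLF7. KLF13 held 31 and 30 H3K18bu regions in the replicates, and 28 and 26 H4K12bu regions. KLF7, which is best known for its part in neuronal development, held 21 and 17 H3K18bu regions and 25 and 26 H4K12bu regions. KLF9, the next, had 9 to 12 in the 4 libraries, and the other 7 genes had 0 to 8. KLF13 and KLF7 have the longest windows, 128.8 and 119.7 kb, so that their counts are not comparable with those of short genes. KLF13 held 42.9% of the 42 shared H3K18bu regions and 41.2% of the 34 shared H4K12bu regions on 24.4% of the summed window. KLF7 held 23.8% and 26.5% on 22.7%, close to its share of the window. Per 10 kb, H3K18bu was highest at KLF13 (1.40 shared regions), followed by KLF6 (1.02), KLF9 (0.999) and KLF7 (0.835). H4K12bu was highest at KLF6 (1.37), followed by KLF13 (1.09) and KLF7 (0.752). The first place of KLF6 rests on 4 shared regions. It had 3 with q under 0.05, in lists of equal length or with an overlap of at least 50% of the shorter region. KLF13 kept its 14 in each of these settings and then ranked first.

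**Figure D1:**
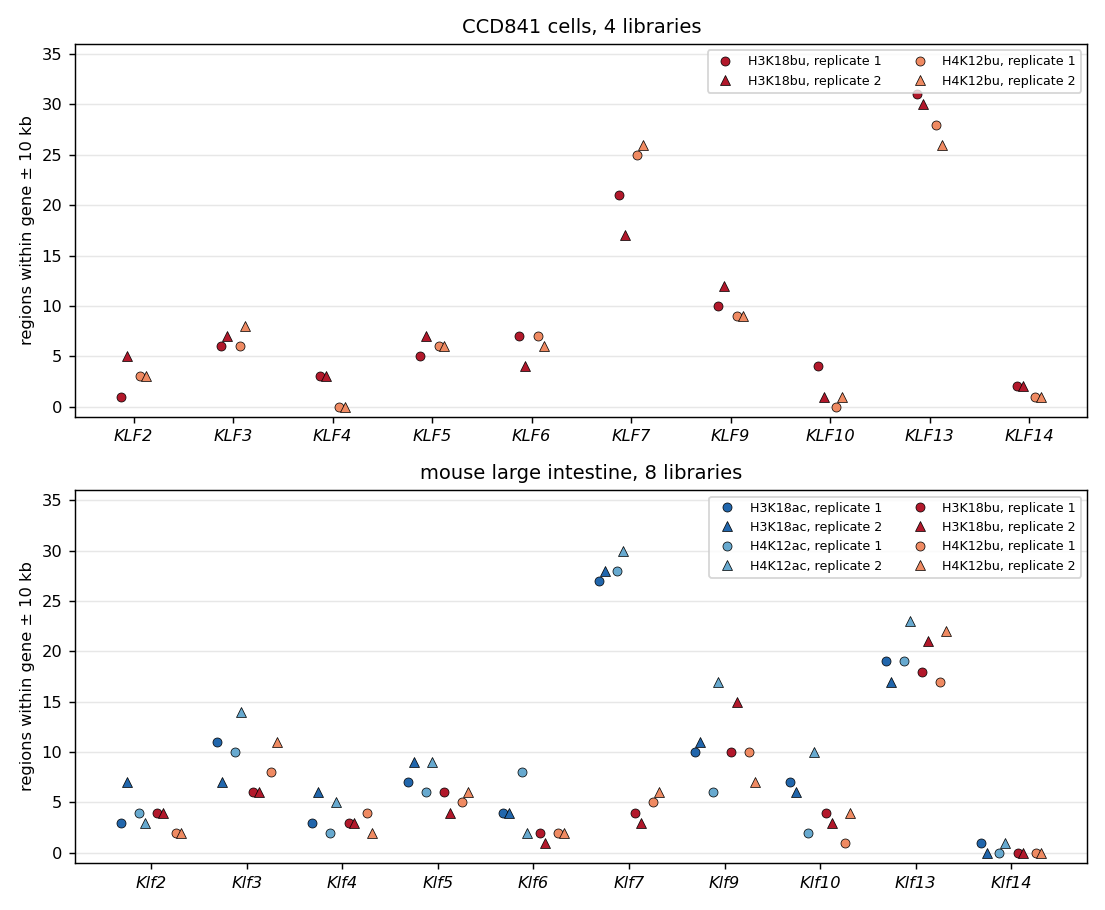
Number of merged regions within each KLF gene ± 10 kb (y axis) in each library, CCD841 above and mouse below; circles are replicate 1, triangles replicate 2, and color gives the mark. KLF13 and KLF7 lie above the other genes in CCD841, and mouse Klf7 has 27 to 30 regions in the Kac libraries but 3 to 6 in the Kbu libraries.

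Per 10 kb of window, the 10 genes together held 0.796 shared H3K18bu regions, beside 0.475 over all protein-coding genes. For H4K12bu the values were 0.644 and 0.510. Without KLF13 the H3K18bu value was 0.602 and the H4K12bu value 0.501, the latter no higher than over all protein-coding genes. The median gene told less: 2 shared H3K18bu regions at a KLF gene and 2 at a protein-coding gene, and 1.5 and 2 for H4K12bu.

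**Figure D2:**
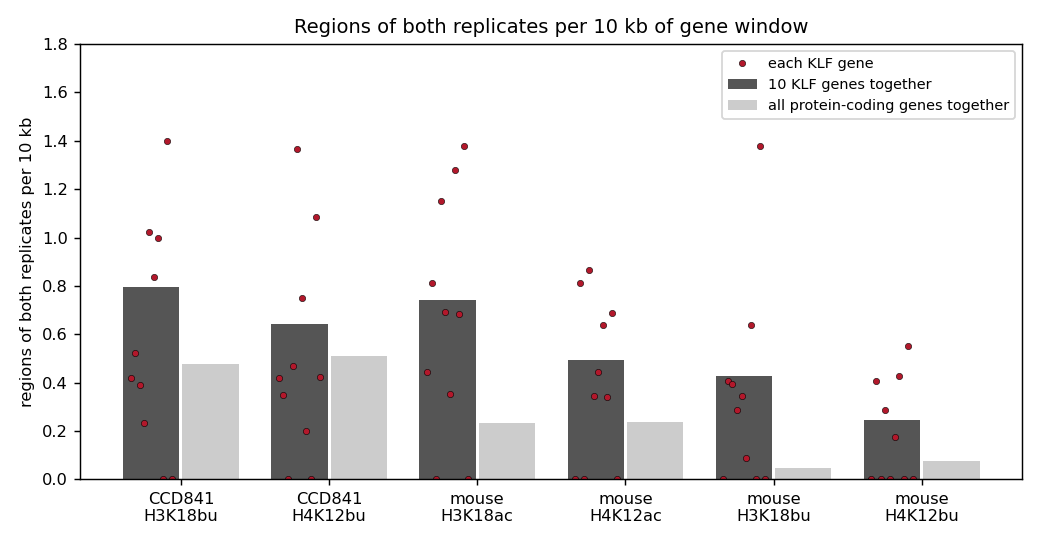
Shared regions per 10 kb of gene window (y axis) for the 10 KLF genes summed (dark bars), for all protein-coding genes summed (light bars) and for each KLF gene (red points), in each of the 6 marks. The dark bar is the taller in each mark, and the spread of the points, from 0 to 1.40 in CCD841 H3K18bu, is wider than the gap between the bars.

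Most of the shared regions in CCD841 lay inside the genes, which also make up most of the summed window. The stretches within 1 kb of a gene start are a small part of it. For H3K18bu 3 shared regions were at a start site (within 1 kb of the gene start), 32 in the body and 7 in the flanks. For H4K12bu these were 0, 29 and 5. Of the body regions 26 of the 32 for H3K18bu, and 21 of the 29 for H4K12bu, overlapped no exon of their gene. Neither the places nor the overlap with exons were set beside those of all genes, so these counts are descriptions.

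Among the activating members, KLF6 carried the strongest start-site region of H3K18bu. KLF6 is an early-response gene that is often lost or misspliced in tumors. Its region (chr10:3785264-3786114) had a fold enrichment over local background of 7.49 in replicate 1 and 7.42 in replicate 2, with pileups of 36 and 37 and a −log10 p of 22.8 and 23.1. It ranked 3451 among the regions of replicate 1 and 1634 among those of replicate 2, within the top 1.63% and 0.713%. The replicates were nearly equal, and the stretch printed above holds 2 CACCC cores and 4 GC boxes. H4K12bu replicate 1 also listed a region there and replicate 2 did not. The 4 shared H4K12bu regions of KLF6 lay in its body, over exons, with pileups of 11 to 13 in replicate 1 and 6 to 8 in replicate 2.

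KLF5 had 1 shared H3K18bu region, 3.88 kb into the gene over an exon annotated as UTR in some transcripts (chr13:73058572-73059129), with fold values of 6.33 and 8.04 and pileups of 18 and 20. H4K12bu replicate 1 listed a region at the same place, with a fold of 6.73 over 19 piled-up reads, and replicate 2 did not, so that it is no shared H4K12bu region. KLF7 had its strongest H3K18bu region 7.37 kb from the start (chr2:207166016-207166958), with a pileup of 28 in each replicate and folds of 5.46 and 6.12; a shared H4K12bu region overlapped it with pileups of 9 and 6. KLF2, a gene known from endothelial cells and T cells, had its only shared regions in the flanks, 8.81 kb upstream of the start for H3K18bu and 13.5 kb downstream of it for H4K12bu. A shared H3K18bu region overlapped that H4K12bu region at the window's edge, but did not reach into the window in both replicates and was not counted. At the KLF2 start H3K18bu replicate 2 listed 3 regions and replicate 1 listed 0. The shared H3K18bu region of KLF4 lay 11.5 kb downstream of its start, past the end of the gene, with pileups of 17 and 10.

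KLF3, the CtBP-binding repressor, had 3 shared H3K18bu and 2 shared H4K12bu regions, all in its body and over introns. The strongest (chr4:38671963-38673480, 8.53 kb from the start) had H3K18bu folds of 6.62 and 5.14 with pileups of 28 and 21. The H4K12bu region that overlaps it had folds of 5.65 and 4.45 with pileups of 21 and 10. These are merged regions whose ends differ between libraries. The bases covered in all 4 CCD841 libraries were 2 stretches of 67 and 182, the longer of which is the KLF3 sequence above, with 2 CACCC cores and no GC box. In H3K18bu replicate 2 that longer stretch lay in a separate, weaker region (chr4:38673136-38673477), of 13 piled-up reads at a fold of 3.10, and not in the region with the fold of 5.14.

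Among the SIN3A-binding members, KLF13 carried the peak with the highest −log10 p of the 10 genes in 3 of the 4 CCD841 libraries. The exception was H3K18bu replicate 2, where the KLF6 start region was stronger. The intronic region 18.5 kb from the KLF13 start (chr15:31344808-31345777) had H3K18bu pileups of 67 and 43 and folds of 5.51 and 4.55, and the overlapping H4K12bu region had pileups of 81 and 26 and folds of 4.45 and 3.94. In H4K12bu replicate 2 the top peak lay elsewhere, 33.4 kb from the start (chr15:31359776-31360594), where the H4K12bu pileups were 40 and 22. By the weaker replicate the strongest shared H3K18bu region lay 27.2 kb from the start (chr15:31353670-31354317), with pileups of 55 and 40 and folds of 5.68 and 5.58, and no shared H4K12bu region overlapped it. Both marks also shared a region 55.6 kb from the start (chr15:31381866-31382949), with H3K18bu pileups of 31 and 27 and H4K12bu pileups of 37 and 15. The start of KLF13 itself carried a weaker shared H3K18bu region, with pileups of 16 and 16 and folds of 4.66 and 5.34. The local background that the peak caller estimated was higher at KLF13 than elsewhere: its median over the regions of the KLF13 window was 6.07 and 4.93 reads in the H3K18bu replicates, against 2.53 and 1.86 over all regions, and 7.53 and 2.45 in the H4K12bu replicates, against 2.60 and 1.03. Its part in the count of regions was not tested.

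KLF9, whose transcription is induced by glucocorticoid and thyroid hormone, had 5 shared H3K18bu regions and 1 shared H4K12bu region. One H3K18bu region lay within the start window, 0.753 kb into the gene (chr9:70413593-70414215), with folds of 6.11 and 5.44 and pileups of 25 and 19. Another 2 lay upstream, 5.61 and 6.40 kb from the start, with pileups of 16 and 16 and of 22 and 16. The shared H4K12bu region lay in the other flank, 37.0 kb from the start.

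**Figure D3:**
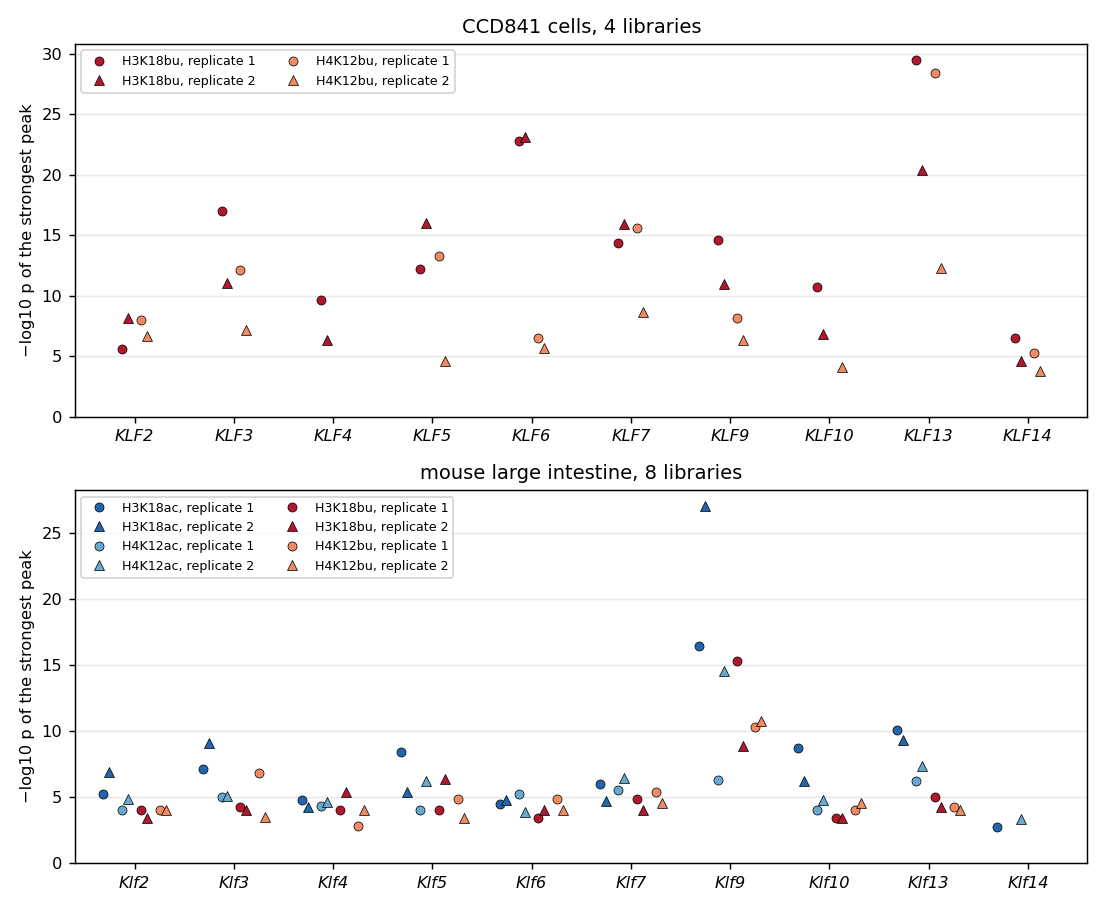
The −log10 p of the strongest peak within each KLF gene ± 10 kb (y axis) in each library, CCD841 above and mouse below, with symbols as for the number of regions; a gene with no listed region in a library has no point. KLF6 and KLF13 stand highest for H3K18bu in CCD841, KLF13 for H4K12bu, and Klf9 in 8 of 8 mouse libraries.

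At start sites, 3 of 10 KLF genes (KLF6, KLF9 and KLF13) had a shared H3K18bu region, beside 30.9% of protein-coding genes. None of the 10 had a shared H4K12bu region there, beside 14.4%. Neither count stands apart from the background. Of the 42 shared H3K18bu regions at KLF genes 15 (35.7%) overlapped a shared H4K12bu region, and over the genome 34.4% of shared H3K18bu regions did. Bases covered in all 4 CCD841 libraries were found at KLF3 (2 stretches), KLF7 (8 stretches) and KLF13 (9 stretches), while 49.2% of protein-coding genes had such a base.

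A CACCC core was present in the central 300 bases of 28 of the 42 shared H3K18bu regions at KLF genes (66.7%, all shared regions 63.6%), and of 26 of the 34 for H4K12bu (76.5%, all 65.0%). The GC box was present in 11 of the 42 (26.2%, all 11.3%) and in 5 of the 34 (14.7%, all 10.6%). Several of these regions share a gene, so the shares are descriptions. In the mouse promoter table, which holds 7 of the 10 KLF genes and 32851 promoters of 300 bases, 5 of the 7 held a CACCC core (71.4%, all 57.5%) and 6 of the 7 a GC box (85.7%, all 35.7%). Klf9 was the one without a GC box, and Klf4 and Klf6 were those without a CACCC core.

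In the mouse intestine 8 of the 10 Klf genes had a shared H3K18ac region, beside 58.5% of protein-coding genes, and 7 had a shared H4K12ac region, beside 61.3%. For the Kbu marks 7 of 10 had a shared H3K18bu region, beside 20.4%, and 5 of 10 a shared H4K12bu region, beside 33.6%. Klf14 had none in any mark. The count for H3K18bu was the farthest above its background. In 16 of its 19 shared regions at Klf genes, however, 1 or both replicates had a single read at the peak, which was so for 85.3% of shared H3K18bu regions over the genome. With a pileup of at least 2 demanded in both replicates, H3K18bu was left at Klf9 and Klf13, 2 of 10 beside 3.82% of protein-coding genes, and H4K12bu at Klf3, Klf9 and Klf13, 3 of 10 beside 8.31%. The Kac marks kept 7 genes each, beside 44.9% for H3K18ac and 58.1% for H4K12ac. With q under 0.05 in both replicates, however, H3K18ac was left at 5 genes, beside 16.5%, H4K12ac at 2, beside 16.8%, and each Kbu mark at 1, beside 0.498% for H3K18bu and 1.69% for H4K12bu. In lists of equal length 6 genes had H3K18ac, beside 27.1%, 2 had H4K12ac, beside 24.2%, 7 had H3K18bu, beside 18.1%, and 2 had H4K12bu, beside 21.8%. The equal length was that of the shortest list, H3K18bu replicate 2 with 50645 regions, which stayed whole. H3K18bu replicate 1 was cut from 60776 regions, H4K12bu replicate 2 from 96332 and each Kac list from at least 297745. The H3K18bu counts therefore had little room to fall under this setting.

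Per 10 kb of window the Klf genes together held 0.741 shared H3K18ac regions (protein-coding genes 0.233), 0.494 of H4K12ac (0.236), 0.426 of H3K18bu (0.0486) and 0.247 of H4K12bu (0.0762). Without Klf13 the H3K18bu value was 0.241 and the H4K12bu value 0.188. By role, the 4 SIN3A-binding genes, on 38.5% of the summed window, held 13 of the 19 shared H3K18bu regions, 10 of them at Klf13. They held 6 of 11 for H4K12bu, 18 of 33 for H3K18ac and 9 of 22 for H4K12ac. The 5 activating genes, on 50.4% of the window, held 4, 3, 11 and 9 in the same order. In CCD841 the SIN3A-binding genes, on 43.5% of the summed window, held 23 of the 42 shared H3K18bu regions, 18 of them at KLF13. They held 16 of the 34 shared H4K12bu regions, 14 of them at KLF13. The activating genes, on 45.7%, held 16 of each, and KLF3 held 3 and 2.

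The regions of Klf13 and Klf7 were counted in the libraries of each acyl group. Klf13 had 19 and 17 regions in the H3K18ac replicates, 19 and 23 in H4K12ac, 18 and 21 in H3K18bu and 17 and 22 in H4K12bu. The ranges of the Kac and Kbu libraries overlapped, with a mean of 19.5 in each. Of the 78 Klf13 regions of the Kbu libraries, however, 65 were single reads. With a pileup of at least 2 the means were 3.25 (Kbu) and 19.5 (Kac), with an exact permutation p of 0.0286 and an adjusted p of 0.0656. At that p 43.6% of all genes tested were higher in Kac under this setting, and 9 of the 10 Klf genes were among them. With q under 0.05 they were 0 and 3.75, with the same exact p and an adjusted p of 0.269, which Klf7 also had, beside 10.6% of all genes tested. Klf7 had 27 and 28 regions in H3K18ac and 28 and 30 in H4K12ac, but 4 and 3 in H3K18bu and 5 and 6 in H4K12bu. The Klf7 ranges did not overlap. In a two-sided exact permutation test of the 4 Kbu against the 4 Kac libraries, the mean of 4.5 against 28.25 gave p = 0.0286, the smallest that 70 assignments allow, and an adjusted p of 0.115 over 47106 genes by the Benjamini-Hochberg method. Among all genes tested 24.9% were higher in the Kac libraries at that unadjusted p. The Kac lists were also longer than the Kbu lists, and whether the difference at Klf7 exceeds that at Klf13 was not tested.

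When the 50645 strongest regions were taken from every mouse library, Klf7 had 3, 2, 7 and 4 regions in the H3K18ac and H4K12ac libraries and 4, 3, 5 and 5 in the H3K18bu and H4K12bu libraries, with an exact p of 1. Klf13 had 6, 9, 7 and 4 in the Kac libraries and 6, 21, 17 and 5 in the Kbu libraries (means of 6.5 and 12.25, exact permutation p = 0.343). The groups overlapped at both genes. Regions of equal p at the cut were taken at random. The Klf13 counts of 21 and 17 came from H3K18bu replicate 2, left whole, and H4K12bu replicate 1, cut only from 50909 regions. Of these Klf13 regions 18 and 15 were single reads. The counts of 6 and 5 came from the Kbu lists cut from 60776 and 96332 regions. The smallest unadjusted p among the Klf genes was at Klf4, with 1, 1, 2 and 1 regions in the Kac libraries and 3, 3, 4 and 2 in the Kbu libraries (exact permutation p = 0.0571). Its mean difference, Kbu minus Kac, turned to -1 with all regions, -0.75 with q under 0.05 and -3.75 with a pileup of at least 2. Summed over the 10 genes, a Kbu library had 41.25 regions on average and a Kac library 27.75 in lists of equal length, while the full lists gave 58.25 and 96.5. The Kac lists were cut far more than the Kbu lists to reach the equal length. None of the 42733 genes tested passed an adjusted p of 0.05 by this exact test (0.0%). The design all but fixes this count, because with a smallest p of 0.0286 the adjustment needs 57.1% of the genes at that p before any can pass. At an unadjusted p of 0.05, 0.431% were higher in Kbu and 0.365% in Kac, and no Klf gene was among them. The labels do not say which library came from which of the 2 mice of a condition. Unless tissue of several mice was pooled, the 4 libraries on either side came from 2 animals and these p-values are too small, since an exact permutation test of 2 animals against 2 cannot go below p = 0.333.

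**Figure D4:**
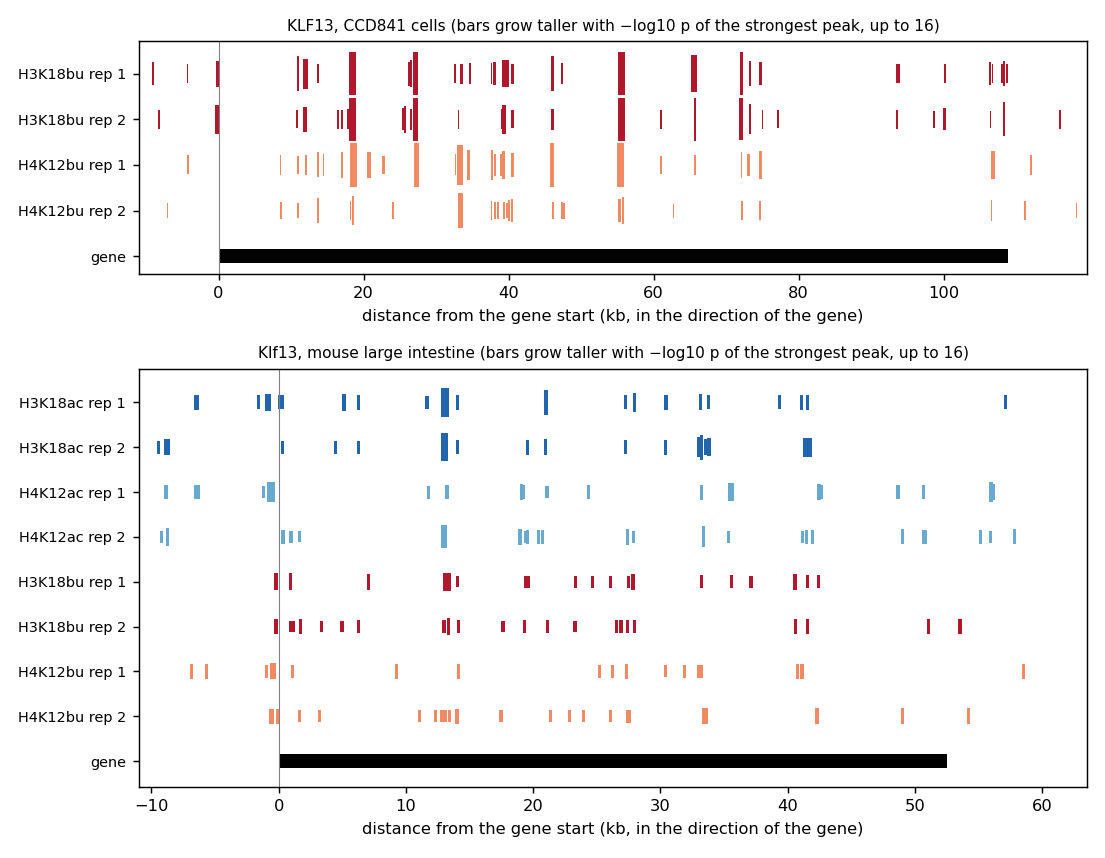
Regions of each library (rows) along KLF13 in CCD841 cells (above) and Klf13 in mouse (below), by distance from the gene start in kb; bars grow taller with the −log10 p of the strongest peak up to a cap, very short regions are widened to be seen, and the black bar is the gene. In CCD841 the tallest bars lie within the gene, between 18.5 and 72.1 kb from its start; in mouse the rows of the Kbu and Kac libraries hold similar numbers of regions, from 17 to 23.

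Klf9 carried the peak with the highest −log10 p of the 10 genes in 8 of 8 mouse libraries. In 7 of the 8 it was the same place upstream of the gene, and in H4K12ac replicate 1 a region 10.8 kb inside it. A stretch of 187 bases 7.09 kb upstream of its start (chr19:23134041-23134227, mm10) lay inside a listed region of every library. The H3K18ac regions over it had folds of 9.61 and 12.6 and pileups of 15 and 26. Those of H4K12ac had folds of 3.32 and 8.88 with pileups of 3 and 13, and the first of these was the only one with q above 0.05. The H3K18bu regions had folds of 9.13 and 5.88 with pileups of 10 and 6, and the H4K12bu regions folds of 6.27 and 6.81 with pileups of 6 and 7. In the mouse Kbu libraries, where most regions rest on a pileup of 1, these ranked 8 and 95 of the H3K18bu lists and 46 and 73 of the H4K12bu lists. Over the genome 612 stretches were covered in all 8 libraries, and 2.27% of protein-coding genes had one in their window. This measure was chosen after the values were seen. Of the other 9 genes Klf3 came nearest, with a base covered in 7 of the 8 libraries, and Klf13 reached 6.

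**Figure D5:**
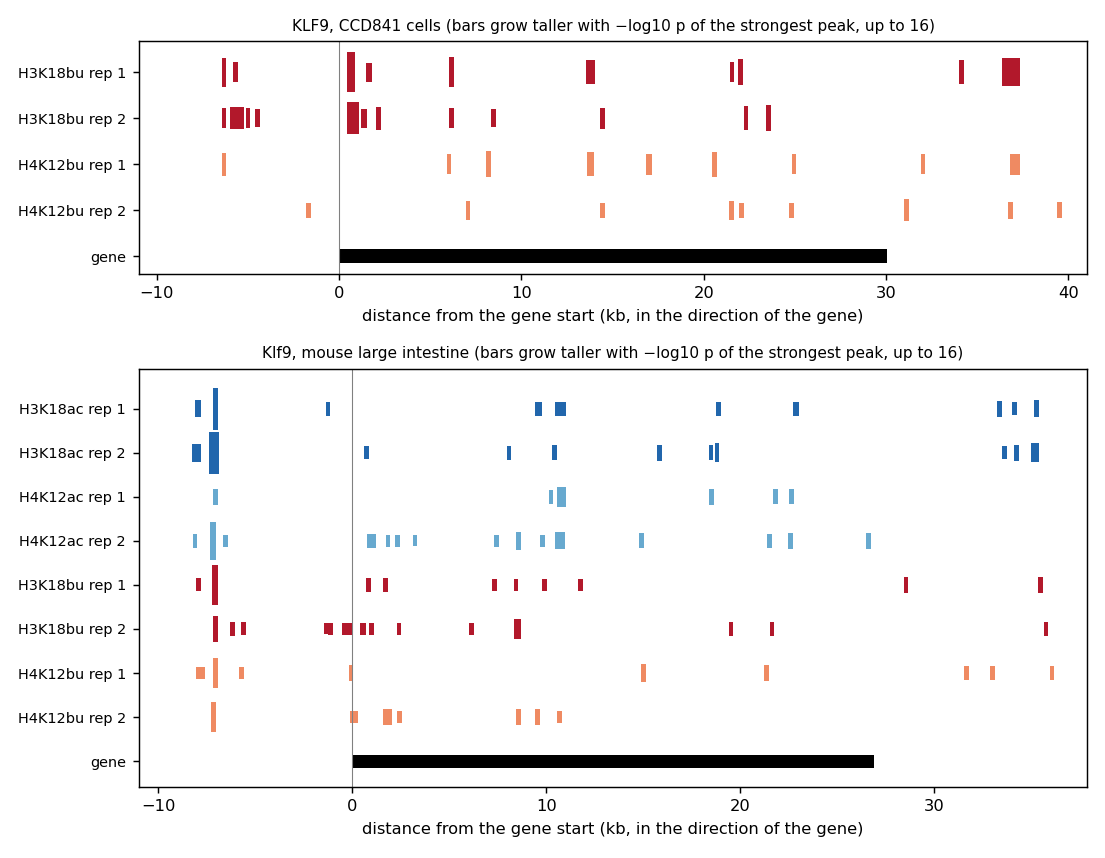
Regions of each library (rows) along KLF9 in CCD841 cells (above) and Klf9 in mouse (below), by distance from the gene start in kb, drawn as for KLF13. All 8 mouse libraries have a region 7.09 kb upstream of the start; in CCD841 the H3K18bu replicates share regions 5.61 and 6.40 kb upstream and over the start window.

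At mouse start sites, among the 7 Klf genes with a known strand, 2 had a shared H3K18ac region, beside 21.4% of protein-coding genes with a known strand, and 2 a shared H4K12ac region, beside 24.6%. For H3K18bu 4 of 7 did (Klf3, Klf6, Klf9 and Klf13), beside 6.09%. For H4K12bu 3 of 7 did (Klf7, Klf9 and Klf13), beside 15.2%. Klf5, taken at both ends of the gene because its strand was not given, had one in each Kbu mark as well. The pileups at these starts were low. At Klf13 the H3K18bu region from 63938940 to 63939320 had a pileup of 2 in each replicate, with folds of 2.83 and 2.72, and the H4K12bu region from 63938966 to 63939640 also had 2 in each, with folds of 2.80 and 2.72. These regions covered 226 and 200 of the 250 promoter bases printed above, and left out the bases next to the start that hold the CACCC core. The start regions of Klf3, Klf6 and Klf9 in H3K18bu were single reads in each replicate, as was that of Klf9 in H4K12bu, which covered 185 of its 250 bases. The Klf6 region covered 90 of its 250 bases. With at least 2 reads in both replicates, the H3K18bu start count was 1 of 7, beside 0.852%, and that of H4K12bu 1 of 7, beside 3.94%; Klf13 was the gene in each. The Kac counts stayed at 2 of 7, beside 16.1% and 23.6%. None of the start regions of the 4 mouse marks had q under 0.05 in both replicates, beside 3.64% of protein-coding genes for H3K18ac, 6.92% for H4K12ac, 0.08% for H3K18bu and 0.926% for H4K12bu. In lists of equal length the start counts were 0 of 7 for H3K18ac, beside 8.0%, 0 of 7 for H4K12ac, beside 9.66%, 4 of 7 for H3K18bu, beside 5.35%, and 0 of 7 for H4K12bu, beside 9.67%. That setting left the list of H3K18bu replicate 2 whole, so it tests the H3K18bu count least.

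Of the Klf7 regions in the Kac libraries, 14.8% and 17.9% (H3K18ac) and 17.9% and 16.7% (H4K12ac) overlapped one of the other replicate, beside 15.4% and 16.0%, and 15.5% and 15.1%, of all regions of these libraries, so the share at Klf7 was near the background. They made 4 shared regions for H3K18ac, all with a pileup of 1 in a replicate or both, and 5 for H4K12ac, with pileups of 2 to 4. Klf13 had 10 shared regions for H3K18ac, 5 for H4K12ac, 10 for H3K18bu and 4 for H4K12bu. The share of its regions that overlapped one of the other replicate was 52.6% and 58.8% for H3K18ac, 26.3% and 21.7% for H4K12ac, 55.6% and 52.4% for H3K18bu and 23.5% and 22.7% for H4K12bu, beside 14.0% and 16.8% of all H3K18bu regions and 20.0% and 10.6% of all H4K12bu regions. Its strongest lay in the body, 13.1 kb from the start (chr7:63925539-63926127), with H3K18ac pileups of 11 and 12. H4K12ac had pileups of 2 and 7 at this place and H3K18bu pileups of 3 and 2, while H4K12bu had no shared region there. Klf6 had a shared H3K18ac and a shared H4K12ac region that overlapped, 1.84 and 1.69 kb from the start, with pileups of 4 and 5 and of 3 and 3, and 1 single-read H3K18bu region before its start.

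Klf3 had its strongest mouse region in its body, 5.81 kb from the start (chr5:64808990-64809665), with H3K18ac folds of 5.20 and 5.78 and pileups of 8 and 12. H4K12ac and H4K12bu each gave a shared region at the same place, with pileups of 2 and 2 in both marks. Klf5, the crypt factor, had shared H3K18ac regions in a flank and inside the gene, the strongest (chr14:99294374-99294643) with folds of 5.96 and 4.19 and pileups of 8 and 6. Klf10 had 2 shared H3K18ac regions and 1 of H4K12ac, with no Kbu region in both replicates, and Klf2 only 1, of H3K18ac, at its start with a pileup of 3 in each replicate. Klf4 had only 1 shared region, of H3K18bu, 8.92 kb upstream with pileups of 1 and 2.

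Of the other members of the family (KLF1, KLF8, KLF11, KLF12, KLF15, KLF16 and KLF17), 1 of 7 had a shared H3K18bu start region in CCD841, KLF16, with a lower −log10 p of the replicates of 7.11. Of the 9 SP genes, relatives that bind the same GC boxes, 4 did, led by SP1 (14.7) and SP4 (13.3). Of 12 cofactors and regulators 3 did, led by the acetyltransferase EP300 (14.1) and the ubiquitin ligase subunit FBXW7 (13.8), beside the same 30.9%. At H4K12bu the counts were 1 of 7, 2 of 9 and 2 of 12, beside 14.4%. In mouse the strand was known for 6 of the other KLF genes, 7 of the SP genes and 10 of the cofactors, and starts were counted over these alone. In H3K18bu 0 of 6, 1 of 7 (Sp4) and 1 of 10 (Hdac2, a histone deacetylase) had a start region, beside 6.09%, and in H4K12bu 2 of 6, 1 of 7 and 1 of 10, beside 15.2%. With at least 2 reads in both replicates, H3K18bu was left with 0 in each list, beside 0.852%, and H4K12bu with 1 in each (Klf11, Sp1 and Hdac2), beside 3.94%. In the Kac libraries 6 of 10 cofactors did for each mark, beside 21.4% for H3K18ac and 24.6% for H4K12ac. Of the SP genes 1 of 7 had an H3K18ac start region and 0 of 7 an H4K12ac start region, and of the other KLF genes 2 of 6 and 3 of 6. Anywhere in their windows, a shared mouse H3K18bu region was found at 1 of the 7 other KLF genes, 2 of the 9 SP genes and 4 of the 12 cofactors, beside 7 of the 10 genes above and 20.4% of protein-coding genes. For H4K12bu these were 3 of 7, 2 of 9 and 6 of 12, beside 5 of the 10 and 33.6%. The cofactors reached 11 of 12 in each Kac mark, beside 8 of the 10 genes and 58.5% of protein-coding genes for H3K18ac, and 7 of the 10 and 61.3% for H4K12ac. The SP genes reached 4 of 9 for H3K18ac and 5 of 9 for H4K12ac, and the other KLF genes 4 of 7 for each. The differences between the lists were not tested.

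The label of the cells was checked on marker starts. Among 11 epithelial markers the CCD841 libraries had a shared start region of H3K18bu at VIL1 alone and of H4K12bu at KRT8 and KRT18, which are neighbors; EPCAM and CDH1 had none. For H3K18bu, fibroblast markers had 2 of 7 (FN1 and COL1A2), smooth muscle 1 of 5 (ACTA2), immune 1 of 4 (CD79A) and endothelial 2 of 3 (VWF and CDH5), beside 30.9% of protein-coding genes. For H4K12bu they had 1 of 7, 1 of 5, 2 of 4 and 1 of 3, beside 14.4%. A peak is no measure of expression, so these lists neither bear out nor contradict the epithelial label. Among mouse markers with a known strand, a shared H3K18bu start region was found at 4 of 8 epithelial markers (Cdx2, Vil1, Krt8 and Lgals4), beside 6.09% of protein-coding genes. With at least 2 reads in both replicates Cdx2 alone was left, 1 of 8 beside 0.852%. H3K18ac also had 4 of 8, beside 21.4%, H4K12ac 2 of 8 (Krt8 and Vil1), beside 24.6%, and H4K12bu 0 of 8, beside 15.2%. The fibroblast (3), smooth muscle (3) and immune (4) markers with a known strand had 0 in each of the 4 marks, and no endothelial marker had a known strand. Counted at both gene ends, the markers without one added Cdx1 and Fn1 in H3K18ac, Cdx1 and Krt19 in H3K18bu and Cdh1 in H4K12bu.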

How the data were processed

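The authors made each list from the reads of 1 library, with bcl2fastq 2.17.1, cutadapt 1.9.1, Bowtie2 2.3.1 and MACS2 2.1.0 on hg38 and mm10 per the submitters' processing notes, at a p threshold of 0.01, up to 300000 peaks, after a filter read here as removal of blacklisted regions. The deposited columns hold a fold enrichment (ratio over local background) and −log10 p and q values; they give no control library, read counts or depth of each library (the methods state only an average over samples), so the precision is set by the pileup. Overlapping peaks of a library were merged (1 bp). The pileup was solved from fold, with 1 added to pileup and background, and the Poisson −log10 p (within 0.01). Regions were shared if the replicates overlapped by 1 bp; start windows were 1 kb on each side. Genes came from GENCODE 44 and RefSeq GRCm38; 3 mouse Klf genes without strand, and list genes without one, used both ends. All 10 KLF genes were named; from other lists, start regions were ranked by the weaker replicate's −log10 p and the leading genes named; other names were chosen after their values were seen. Kbu and Kac were compared by exact permutation (Python 3.11.15, numpy 2.4.6), tested on simulated data. No source states separate cultures for the CCD841 replicates, so their spread may be technical. The members and lists were chosen with earlier results of these data known. Alternatives changed the threshold, pileup, list length, overlap, windows and replicates.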

Additional observations from a re-analysis of the deposited data

Results flagged for a closer look

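Among the 4 Kbu and the 4 Kac mouse libraries, 2 genes had a library that stood apart from the other 3 by a gap test at the 95% level. Klf6 had 1 region in H3K18bu replicate 2 against 2 in each of the other Kbu libraries, both in the full lists and in lists of equal length. Klf4 had 2 regions in H4K12ac replicate 1 against 1 in each of the other Kac libraries in lists of equal length. Both are differences of 1 region from 3 equal counts, which meet the test by construction, so the rate of about 1 group in 20 that chance gives for untied values does not hold here.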

How the results depend on the processing

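Of 137 alternatives to the counts and shares over the KLF genes and to the count of genes that differ, 83 kept the value within 1.5 times and 54 did not. For the counts of single KLF genes 186 of 420 alternatives did not. In CCD841, 5 genes had a shared H4K12bu region in a 5 kb window (protein-coding genes 71.0%), where KLF2 and KLF4 lost H3K18bu, KLF2, KLF9 and KLF14 lost H4K12bu, and KLF9 kept 3 H3K18bu regions. With q under 0.05 KLF14 lost its H4K12bu region, and KLF3 and KLF5 had 1 each. With q under 0.05, in mouse, the genes with a shared region, those with one at the start and the shared regions numbered 5, 0 and 7 for H3K18ac, 2, 0 and 2 for H4K12ac, 1, 0 and 1 for H3K18bu, and 1, 0 and 1 for H4K12bu; protein-coding genes with a shared region were then 16.5%, 16.8%, 0.498% and 1.69%, and with one at the start 3.64%, 6.92%, 0.08% and 0.926%. A pileup of at least 2 left H3K18bu with 2, 1 and 3, and H4K12bu with 3, 1 and 3. In lists of equal length, H3K18ac had 0 start genes and 14 regions, H4K12ac 2 genes, 0 at the start and 3 regions, and H4K12bu 2 genes, 0 at the start and 2 regions. A start window of 3 kb gave 5 genes for H3K18ac and 4 for H4K12ac (with known strand 3 of 7 each, protein-coding genes 28.7% and 31.3%), and an overlap of at least 50% of the shorter region left 7 H4K12bu regions. Without a replicate there is no sharing, so every region of the other one counts: in CCD841 88 to 90 (H3K18bu) and 85 to 86 (H4K12bu), and in mouse 92 to 95 (H3K18ac), 85 to 114 (H4K12ac), 57 to 60 (H3K18bu) and 54 to 62 (H4K12bu). Start genes were then 3 to 5 and 0 to 1 in CCD841. In mouse they were 5 to 6, 7 to 7, 7 to 8 and 7 to 7, with the 3 genes without strand counted at both ends. Among the 7 with known strand they were 4 to 5, 5 to 5, 5 to 6 and 5 to 6. In mouse 9 to 9 genes had H4K12bu (protein-coding genes 66.5% to 78.1%). Protein-coding genes with known strand and a start region of 1 library were 40.3% to 45.6% and 27.3% to 27.8% in CCD841. In mouse they were 46.0% to 47.5%, 45.0% to 53.9%, 20.3% to 22.3% and 27.7% to 40.6%. The overlap of H3K18bu with H4K12bu regions at the KLF genes ranged from 23.9% to 52.2%. The genome share of 34.4% given above is for the main setting alone, so this range has no background beside it.

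The mean difference between Kbu and Kac libraries (13.5 regions over the 10 genes in lists of equal length) turned to -38.25 with all regions, -15.25 with q under 0.05 and -74.25 with a pileup of at least 2; the Kac lists hold more such regions. In the same order Klf4 turned to -1, -0.75 and -3.75 and Klf7 to -23.75, -2.75 and -17.5. Klf2, Klf3, Klf5, Klf6 and Klf9 also turned negative in each of these settings, and Klf5 turned to -2 without replicate 1 as well. Klf13 turned to -3.75 with q under 0.05 and -16.25 with a pileup of at least 2, and Klf7 to -0.5 without replicate 2. The cause was not tested. With the replicate block, 0 genes passed an adjusted p of 0.05, as without it, but the 36 assignments of that exact test cannot go below p = 0.0556. Same-numbered libraries did not deviate together (correlations of -0.164 to 0.0443 over 6 pairs of groups, across genes), and which of them share an animal is not given in the sources used here, so the numbers were not used to pair them. Without the block an adjusted p of 0.05 needs 57.1% of genes at the smallest p. Without replicate 1 or 2, the exact test has 6 assignments and cannot go below p = 0.333. The Klf9 stretch covered in all 8 libraries was lost with q under 0.05 and in a 5 kb window, settings chosen after seeing the data. The lists do not give the depth of each library, for which the study's methods state only an average, so an unlisted region is not an absent mark.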
